A study of Drosophila melanogaster with 18 samples.

Results

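Cytochrome P450 genes were followed in whole adult Drosophila melanogaster females under 3 oxygen levels, with and without knockdown of Tudor-SN. Genes were taken whose symbol begins with Cyp and a digit and whose mean over the 18 libraries was at least 1 FPKM (fragments per kilobase of gene, scaled to the library's total, a level per length). Of 86 genes with such a symbol, 69 reached that mean. Cyp1, among the 69, belongs to a cyclophilin (a peptidyl-prolyl isomerase) and to no P450, so 68 P450 genes are described below and Cyp1 is given apart. By family number, 34 of the 68 belong to the CYP3 clan, 23 to the CYP4 clan, 9 to the mitochondrial clan and 2 to the CYP2 clan. The 17 P450 symbols under the threshold had means from 0 to 0.916 FPKM.

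P450 enzymes hold a heme and use molecular oxygen to insert an oxygen atom into a substrate, with electrons passed on by a reductase or, in mitochondria, by ferredoxin. In insects the CYP3 clan and many CYP4 enzymes act on plant toxins and insecticides, mostly in midgut, Malpighian tubule and fat body, and several of their genes are induced by such compounds. Other members make or break down hormones and surface lipids: Cyp4g1 carries out the last step of cuticular hydrocarbon synthesis in oenocytes, and Cyp18a1 inactivates ecdysteroids.

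Each of the 6 groups held 3 libraries, each of 10 females aged 1 to 5 days. Control flies had the genotype w;;+/UAS-Tudor-SN RNAi, so they carried the RNAi transgene without a driver. Knockdown flies were w;;Da-GAL4/UAS-Tudor-SN RNAi, in which the ubiquitous daughterless driver expresses the hairpin, from 1 RNAi line. Flies of both genotypes spent 6 h in 6% O2 or 2% O2, or stayed in normal air (normoxia). Driver-only flies are not among the groups, so an effect of the driver and one of the knockdown cannot be told apart. Levels below are scaled FPKM, the deposited FPKM divided by 1 factor per library. Differences are on the log2(scaled FPKM + 1) scale with their standard error, tested with limma over 9921 genes, and a gene is called at a Benjamini-Hochberg adjusted p under 0.05.

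Tudor-SN, the targeted gene, lay between 161 and 221 scaled FPKM in the 9 control libraries and between 5.20 and 20.8 in the 9 knockdown libraries. Knockdown means were 9.28%, 7.33% and 3.32% of control in normoxia, 6% O2 and 2% O2 (exact permutation p = 0.10 in each, 2-sided, the smallest that 3 against 3 libraries can give). The FPKM files carry no read totals. Relative depth, read from the steps between low values, was 0.875 for replicate 3 of knockdown flies in 2% O2 and 0.965 to 1.02 for the other 17 libraries. Male accessory gland and testis genes summed to at most 0.738 scaled FPKM in any library, and 2 of those 4 genes, SP and Mst84Da, were listed at 0 throughout. In RNA of whole flies, fewer cells of a type and less RNA per cell cannot be told apart. The labels do not state whether libraries kept strand, and 29 of the 68 P450 genes overlap a gene on the other strand, so reads of such pairs may be mixed.

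P450 transcript levels spanned 3 orders of size and were led by 1 gene. Cyp4g1, the oenocyte decarbonylase (FBgn0010019, chromosome X from 467057 to 469335 on build BDGP6), averaged 2061 scaled FPKM over all libraries with a range of 1082 to 3005. Cyp6a19 of the CYP3 clan came next at 326. A further 26 members averaged 10 to 100, and 40 averaged under 10, with a median of 6.42 over the 68. Cyp4g1 made up 68% ± 3.28 (SD, n = 3) of the summed P450 level in control normoxia, 70.1% ± 0.907 under 6% O2 and 60.2% ± 1.19 under 2% O2. Its share with the knockdown was 62.6% ± 2.36, 65.4% ± 0.794 and 47.1% ± 4.36. The sum of the other 67 members was 1137 ± 49.1 scaled FPKM in control normoxia and 1353 ± 35.9 at 2% O2, and 1009 ± 19.1 and 1517 ± 148 in knockdown flies. In each genotype all 3 hypoxic libraries lay above all 3 in air.

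**Figure D1:**
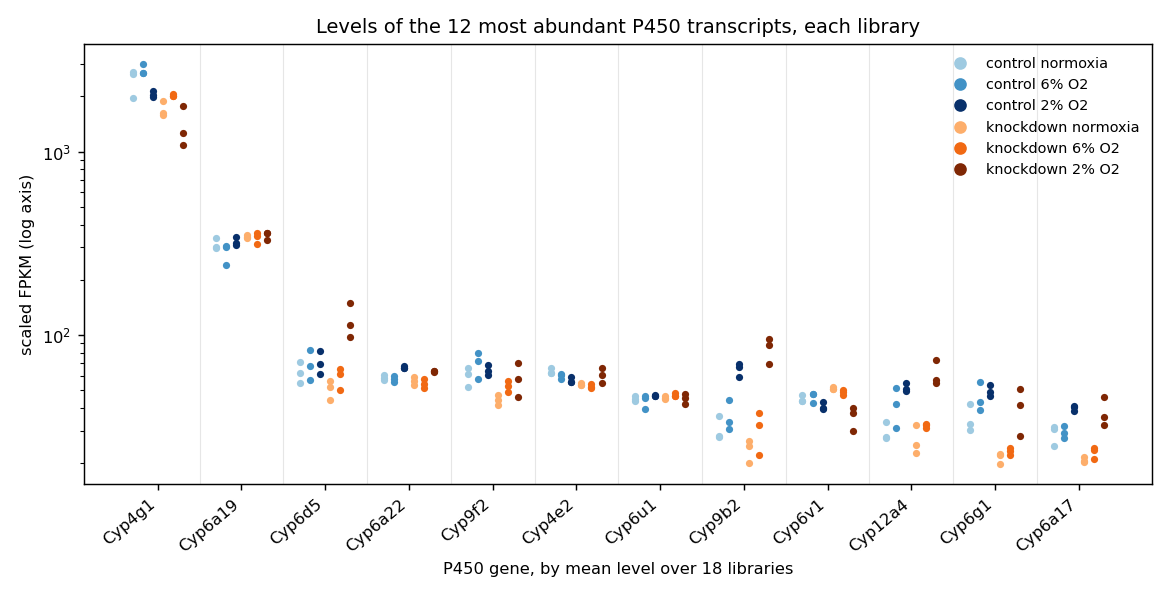
Scaled FPKM (log axis) of the 12 P450 genes with the highest mean, 1 point per library, colored by genotype and oxygen level. Cyp4g1 lies between 1082 and 3005, Cyp6a19 averages 326, and the 10 others average between 30.0 and 71.9.

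At 2% O2 control flies raised 22 of the 68 P450 genes and lowered 6, beside 15.4% of all 9921 genes raised and 14.7% lowered (30.1% either way). The 22 make up 32.4% of the members and the 6 make up 8.82%. The median member rose by 0.14 on the log2 scale while the median of all genes was -0.01. The largest rises among genes whose groups did not overlap were Cyp4e3, Cyp309a1, Cyp12a5, Cyp9b2, Cyp28a5, Cyp4ac3, Cyp4p1 and Cyp6a23. The falls were Cyp313a1, Cyp4ac2, Cyp4e1, Cyp6d2, Cyp6t1 and Cyp4e2. In 37 members (54.4%, beside 44.0% of all genes) the 3 libraries of one oxygen level all lay above the 3 of the other. Of the 28 calls, 22 held in each of the 6 fits that left out 1 library. Cyp4e3, Cyp6g1, Cyp6a20, Cyp6a18, Cyp6t1 and Cyp4e2 lost theirs in at least 1.

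Knockdown flies at 2% O2 raised 41 P450 genes and lowered 5, beside 28.5% of all genes raised and 27.0% lowered (55.4% either way). The 41 are 60.3% of the members. The median member rose by 0.45 against 0.00 for all genes. Of the 22 genes raised in control flies, 21 were raised in knockdown flies too, which is 95.5% of the former and 51.2% of the latter list. The same overlap was not counted over all genes. Cyp313a1, Cyp4e1 and Cyp6t1 fell in both. Cyp6a18 rose in control flies and fell in knockdown flies, and Cyp4e2 did the opposite. Groups did not overlap in 48 members (70.6%, beside 62.3% of all genes). With quantile normalisation 33 members were raised and 9 lowered, a raised share of 78.6% of the calls against 89.1% above.

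Markers of several tissues moved in the same comparisons, and their part in the P450 changes was not tested. There 15.4% of all genes rose and 14.7% fell in control flies, and 28.5% and 27.0% in knockdown flies. The summed level of 7 Malpighian tubule markers was 110.2 to 122 scaled FPKM over the control normoxia libraries and 179 to 188 at 2% O2. Knockdown libraries had 112 to 129.5 in air and 185 to 221 in hypoxia. In each genotype 2 of the 6 tested tubule markers rose and 2 fell, with list medians of 0.04 and 0.16. Uro, the urate oxidase gene, rose by 3.77 ± 0.284 and 3.19 ± 0.284, and Smvt fell by 1.22 ± 0.141 and 1.36 ± 0.141, so the higher sum was not shared by the list. Fat body markers summed to 1550.0 to 3014 in control normoxia and 2145 to 2830.4 at 2% O2, with 1 of 6 raised. In knockdown flies they summed to 2272 to 3185 and 3096 to 5059, with 2 raised and 1 lowered. Midgut markers, of which 4 of 10 rose and 4 fell in control flies and 4 rose and 2 fell in knockdown flies, summed to 2657 to 3256 and 2839 to 3004 in control flies and to 1489.6 to 2129 and 1977 to 2846 in knockdown flies. Ovary and germline markers had 1 of 7 raised and 1 lowered in control flies, and 2 raised and 4 lowered in knockdown flies. Their sums were 1095 to 1397 and 1125 to 1162 in control flies, and 1431 to 1645 and 1134 to 1317 in knockdown flies. Eye markers had none of 5 called in control flies and 3 raised in knockdown flies, at 1578 to 1782 and 2152 to 2352. Of 7 muscle markers, none was called in control flies and 1 rose in knockdown flies. No marker of these tissues was at 0 in all libraries.

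The mitochondrial clan had the highest median response of the 4 clans, 0.70 in control flies and 1.04 in knockdown flies. Of its 9 members, which count both Cyp12d1 copies, 5 and 6 were raised, beside 15.4% and 28.5% of all genes, and none was lowered in either. Cyp12d1-p and Cyp12d1-d, near-identical neighbouring copies on 2R that are induced by DDT, caffeine and phenobarbital, had the largest rises of the clan in knockdown flies. Cyp12d1-d (FBgn0053503, 2R from 11123658 to 11125647) read 13.3, 11.6 and 15.5 scaled FPKM in control normoxia and 20.9, 25.0 and 25.5 at 2% O2. In knockdown flies it read 9.88, 9.61 and 11.5 in normoxia and 64.3, 46.2 and 57.0 at 2% O2. The knockdown 2% O2 libraries stood above all 15 others, and neither pair of groups overlapped. The rise was 0.78 ± 0.127 in control flies (adjusted p = 0.000264) and 2.32 ± 0.127 in knockdown flies (adjusted p = 1.75e-09). Cyp12d1-p rose by 0.70 ± 0.129 and 2.24 ± 0.129. Reads of such copies are divided by the quantifier's own model, and the sum of both copies gave the same calls in all 9 comparisons.

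Cyp12a5 and Cyp12a4, tandem genes on 3R of which the latter confers lufenuron resistance when overexpressed, rose in both genotypes. Cyp12a5 (FBgn0038680, 3R from 19132648 to 19134704) went from 7.01, 5.85 and 8.16 to 16.9, 18.6 and 18.6 in control flies. It went from 5.15, 6.41 and 5.46 to 26.8, 19.5 and 33.7 in knockdown flies, so every 2% O2 library lay above every normoxia library. The rises were 1.26 ± 0.176 (adjusted p = 7.08e-05) and 2.02 ± 0.176 (adjusted p = 1.72e-07). Cyp12a4 rose by 0.79 ± 0.162 and 1.18 ± 0.162, and Cyp49a1 by 0.79 ± 0.160 and 1.04 ± 0.160. Cyp12c1 measured 0.16 ± 0.123 in control flies (adjusted p = 0.349) and rose by 0.95 ± 0.123 with the knockdown (adjusted p = 1.04e-05). Cyp12b2, Cyp12e1 and the cuticle-formation gene Cyp301a1 were called in neither genotype, with differences between -0.15 and 0.13.

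In the CYP3 clan 11 of 34 members rose and 2 fell in control flies, and 22 rose and 3 fell in knockdown flies. Beside them, 15.4% of all genes rose and 14.7% fell in control flies, and 28.5% and 27.0% in knockdown flies. Cyp309a1 (FBgn0031432, 2L from 2562483 to 2564830) showed the largest rise of any member in knockdown flies. It read 2.46, 2.92 and 3.15 scaled FPKM in control normoxia and 7.49, 7.59 and 9.68 at 2% O2. In knockdown flies it read 1.10, 0.911 and 1.61 in normoxia and 21.5, 19.2 and 27.3 at 2% O2. The knockdown group was thus the lowest of the 6 in normoxia and the highest at 2% O2, an 18.8-fold ratio of means against 2.90-fold in control flies. The differences were 3.42 ± 0.193 (adjusted p = 2.20e-09) and 1.26 ± 0.193 (adjusted p = 0.000152). Its neighbour Cyp309a2 rose by 1.22 ± 0.156 in knockdown flies and measured 0.25 ± 0.156 in control flies (adjusted p = 0.242).

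All 6 CYP9 members were raised in knockdown flies, although Cyp9f2, Cyp9c1 and Cyp9h1 each lost the call in at least 3 of the 6 fits that left out 1 library, and 2 were raised in control flies. Of all genes 28.5% were raised in knockdown flies and 15.4% in control flies. Cyp9b2 (2R from 7130277 to 7132139) read 27.9, 27.8 and 36.0 in control normoxia and 59.1, 69.5 and 66.5 at 2% O2. It read 20.1, 26.2 and 24.8 and then 88.5, 69.3 and 95.1 in knockdown flies. The rises of 1.07 ± 0.187 and 1.78 ± 0.187 had adjusted p values of 0.000618 and 2.27e-06, with no overlap of groups. Its neighbour Cyp9b1 rose by 0.60 ± 0.149 and 1.53 ± 0.149 at a lower level, from a mean of 2.19 to 3.83 in control flies and from 1.37 to 5.86 in knockdown flies. Of the CYP28 genes, Cyp28a5 rose by 1.03 ± 0.215 and 0.87 ± 0.215.

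Cyp28d1, which contributes to nicotine tolerance (FBgn0031689, 2L from 5210460 to 5212445, overlapping CG7742 on the other strand), read 23.5, 25.0 and 30.6 in control normoxia and 31.6, 31.7 and 32.5 at 2% O2. Knockdown libraries read 6.78, 6.71 and 8.81 in normoxia and 24.5, 16.3 and 28.3 at 2% O2. All 3 knockdown libraries in normoxia lay below every control library, and at 2% O2 they still lay below the 3 controls. The control difference of 0.27 ± 0.226 was not called (adjusted p = 0.40), and the knockdown rise was 1.49 ± 0.226 (adjusted p = 6.97e-05).

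Among CYP6 genes 7 of 23 rose and 2 fell in control flies, and 11 rose and 3 fell in knockdown flies. The shares of all genes were 15.4% and 14.7%, and 28.5% and 27.0%. Cyp6a23 rose by 0.88 ± 0.15 and 1.42 ± 0.15, and Cyp6a17, linked to temperature preference, by 0.46 ± 0.109 and 0.82 ± 0.109. Cyp6a20, known for its effect on male aggression, rose by 0.36 ± 0.128 (adjusted p = 0.0418) and 1.13 ± 0.128 (adjusted p = 2.68e-06). The control call was lost without control normoxia replicate 2 or without control 2% O2 replicate 2 or 3. Cyp6g1, the DDT and neonicotinoid resistance gene, went from 30.2, 32.5 and 42.0 to 46.5, 53.1 and 48.9 in control flies and from 19.7, 22.0 and 22.4 to 41.3, 28.1 and 50.8 in knockdown flies. Groups did not overlap in either genotype, at 0.50 ± 0.176 (adjusted p = 0.0425) and 0.84 ± 0.176 (adjusted p = 0.000965), but the control call held only without control normoxia replicate 3 among the fits that left out 1 library.

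Cyp6d4 rose by nearly the same amount in both genotypes, 0.53 ± 0.132 and 0.54 ± 0.132. Cyp6d5, a gene induced by xenobiotics, was raised in knockdown flies, from 44.2, 56.3 and 51.9 to 113, 97.4 and 149. In control flies it read 61.6, 54.7 and 71.0 in normoxia and 61.3, 69.2 and 81.6 at 2% O2, which overlap. The differences were 1.21 ± 0.175 (adjusted p = 4.69e-05) and 0.18 ± 0.175 (adjusted p = 0.494). Cyp6w1 rose by 1.02 ± 0.229 in knockdown flies, and its 0.62 ± 0.229 in control flies missed the threshold (adjusted p = 0.0548). Cyp6g2, which overlaps the end of Cyp6g1 on the opposite strand, and Cyp6a8, raised in DDT-resistant strains, were called in knockdown flies at 0.56 ± 0.154 and 0.87 ± 0.117.

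Some of the most abundant CYP6 transcripts hardly moved. Cyp6a19 differed by 0.05 ± 0.0836 in control and 0.03 ± 0.0836 in knockdown flies, and Cyp6u1 by 0.05 ± 0.0571 and -0.02 ± 0.0571, none of them called. Cyp6a22 rose by 0.19 ± 0.0466 and 0.17 ± 0.0466, a small change measured with little spread, and the latter was not called on the deposited FPKM. Cyp6a2, a phenobarbital-inducible gene, ranged from 4.35 to 10.3 over the control 2% O2 libraries alone and was called in neither genotype. Cyp6t3, known from ecdysone synthesis in the larval ring gland, averaged between 1.19 and 1.64 in every group and was not called.

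Falls in the CYP6 family were few. Cyp6d2 fell by 0.58 ± 0.131 in control flies (adjusted p = 0.00307), and measured 0.06 ± 0.131 in knockdown flies. Cyp6v1 fell by 0.51 ± 0.0802 in knockdown flies (adjusted p = 6.54e-05). Cyp6t1 fell by 0.24 ± 0.0670 and 0.21 ± 0.0670. Those calls were lost without control 2% O2 replicate 1 or 3 and without knockdown 2% O2 replicate 3. Cyp6a18 (FBgn0039519, 3R from 27478675 to 27482904) read 4.05, 3.09 and 3.84 in control normoxia and 5.65, 4.92 and 5.53 at 2% O2, against 2.94, 3.57 and 2.36 and then 1.77, 1.16 and 1.93 in knockdown flies. The groups separated in opposite directions, at 0.45 ± 0.147 (adjusted p = 0.0286) and -0.59 ± 0.147 (adjusted p = 0.00278). The control rise was lost without control normoxia replicate 2 or without control 2% O2 replicate 1 or 3.

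**Figure D2:**
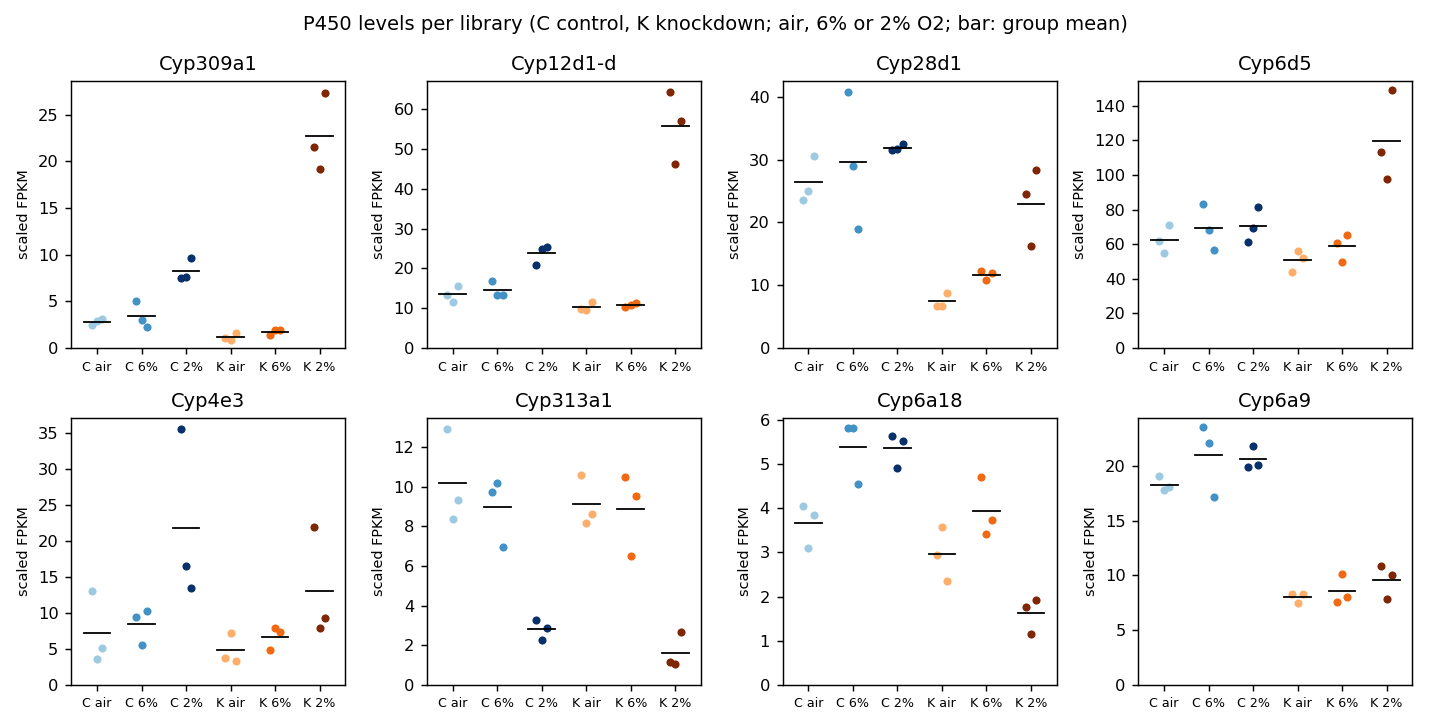
Scaled FPKM of 8 P450 genes in each library (points) with group means (bars), for control (C) and knockdown (K) flies in air, 6% O2 and 2% O2. Cyp309a1 and Cyp12d1-d peak in the 3 knockdown 2% O2 libraries, Cyp313a1 is lowest at 2% O2 in both genotypes, and Cyp6a9 is lower in knockdown flies at every oxygen level.

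In the CYP4 clan 5 of 23 members rose and 4 fell in control flies, and 12 rose and 2 fell in knockdown flies. Of all genes 15.4% rose and 14.7% fell in control flies, to which the clan's shares were close, and 28.5% and 27.0% in knockdown flies. The clan medians were -0.01 and 0.38. Cyp313a1 (FBgn0038236, 3R from 14521049 to 14523064, overlapping Pde6 on the other strand) fell most of all members. It went from 12.9, 8.37 and 9.34 to 3.29, 2.26 and 2.89 in control flies and from 10.6, 8.20 and 8.61 to 1.16, 1.04 and 2.65 in knockdown flies. No library overlapped between oxygen levels, and the differences were -1.54 ± 0.227 (adjusted p = 0.000115) and -2.0 ± 0.227 (adjusted p = 3.00e-06). Means at 2% O2 were 0.276 and 0.177 of normoxia.

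Cyp4e3, a tubule P450 that affects permethrin tolerance, had the largest log2 rise of control flies and the largest standard error of the 68 genes. It read 13.0, 3.60 and 5.08 in normoxia and 35.5, 16.5 and 13.4 at 2% O2, so the lowest hypoxic library lay just above the highest normoxic one. The difference was 1.52 ± 0.477 (adjusted p = 0.0282), lost without control normoxia replicate 2 or 3 or without control 2% O2 replicate 1. In knockdown flies it was 1.21 ± 0.477 (adjusted p = 0.0456), lost without knockdown normoxia replicate 1 or 3 or knockdown 2% O2 replicate 1 or 3. Cyp4p1 read 9.15, 6.13 and 13.1 and then 16.7, 22.8 and 18.2 in control flies, and 4.73, 4.99 and 5.01 and then 22.4, 14.9 and 21.0 in knockdown flies. Both pairs of groups were apart, with rises of 1.00 ± 0.229 and 1.77 ± 0.229. Cyp4ac3 rose by 1.03 ± 0.164 and 1.37 ± 0.164.

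Cyp4e1, which overlaps the midgut maltase gene Mal-A1, fell by 0.71 ± 0.132 in control flies and by 0.41 ± 0.132 in knockdown flies. The latter call was lost without knockdown normoxia replicate 2 or 3 or knockdown 2% O2 replicate 2. Cyp4ac2 fell by 0.71 ± 0.163 in control flies (adjusted p = 0.00357) and measured -0.13 ± 0.163 in knockdown flies. Cyp4e2 differed by -0.16 ± 0.0560 and 0.16 ± 0.0560, and each call was lost in several fits that left out 1 library. Cyp4g15, a paralog of Cyp4g1 known from the nervous system, rose in knockdown flies from 2.48, 2.68 and 2.67 to 6.78, 5.89 and 6.93, a difference of 1.06 ± 0.141 (adjusted p = 1.32e-05). In control flies it measured 0.10 ± 0.141. Cyp4ad1 rose by 0.86 ± 0.187 and Cyp4d2 by 0.72 ± 0.109 in knockdown flies, against -0.21 ± 0.187 and 0.11 ± 0.109 in control flies. Cyp311a1 was called in knockdown flies at 0.61 ± 0.172.

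Cyp4g1 itself was not called at 2% O2 in either genotype. It read 2643, 1963 and 2716 in control normoxia and 2031, 1975 and 2131 at 2% O2, against 1615, 1578 and 1889.7 and then 1263, 1082 and 1778 in knockdown flies. Groups overlapped in both genotypes, with differences of -0.24 ± 0.149 (adjusted p = 0.250) and -0.33 ± 0.149 (adjusted p = 0.0731).

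The CYP2 clan held Cyp18a1, the ecdysteroid hydroxylase, and Cyp305a1. Cyp18a1 rose from 9.69, 7.58 and 11.7 to 15.9, 14.5 and 15.6 in control flies and from 7.47, 7.72 and 7.88 to 18.9, 17.0 and 20.8 in knockdown flies. Groups were apart in both, at 0.63 ± 0.125 (adjusted p = 0.00124) and 1.19 ± 0.125 (adjusted p = 1.27e-06). Cyp305a1 measured -0.07 ± 0.126 and -0.22 ± 0.126 and was not called.

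Responses to 2% O2 differed between the genotypes in 16 P450 genes, 15 of them with the higher (more positive) log2 response in knockdown flies and 1, Cyp6a18, with the higher in control flies. Over all genes 5.43% were called the former way and 2.21% the latter (7.64% either way). The 15 are 22.1% of the members. A higher log2 response in knockdown flies was measured for 52 of 68 members, beside 53.1% of all genes, and the median difference was 0.31 against 0.02 for all genes. The largest were Cyp309a1 at 2.16 ± 0.272 (adjusted p = 0.000439), Cyp12d1-p and Cyp12d1-d at 1.54 ± 0.182 and 1.54 ± 0.180 (adjusted p = 0.000252 for each), Cyp28d1 at 1.21 ± 0.319 (adjusted p = 0.0343), Cyp4ad1 at 1.08 ± 0.264, Cyp6d5 at 1.03 ± 0.247, Cyp309a2 at 0.96 ± 0.220 and Cyp4g15 at 0.95 ± 0.199. Cyp6a18 stood at -1.05 ± 0.208 (adjusted p = 0.00765). The order holds for the log2(scaled FPKM + 1) scale, which understates the change of low genes. Cyp6a8, for example, measured 0.95, with means going from 0.612 to 1.95 in knockdown flies and from 1.61 to 1.48 in control flies.

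Calls held in each of the 12 fits that left out 1 library for 9 of the 16 genes, namely Cyp309a1, Cyp309a2, Cyp12d1-p, Cyp12d1-d, Cyp12c1, Cyp4g15, Cyp9b1, Cyp6a8 and Cyp6a18. The count fell to 9 without control normoxia replicate 3 or control 2% O2 replicate 1, to 10 without replicate 1 of control or knockdown normoxia, and to 12 without knockdown 2% O2 replicate 3. Over all genes the split was 539 higher and 219 lower, and with quantile normalisation 409 and 504, while that of the members was 14 and 2.

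**Figure D3:**
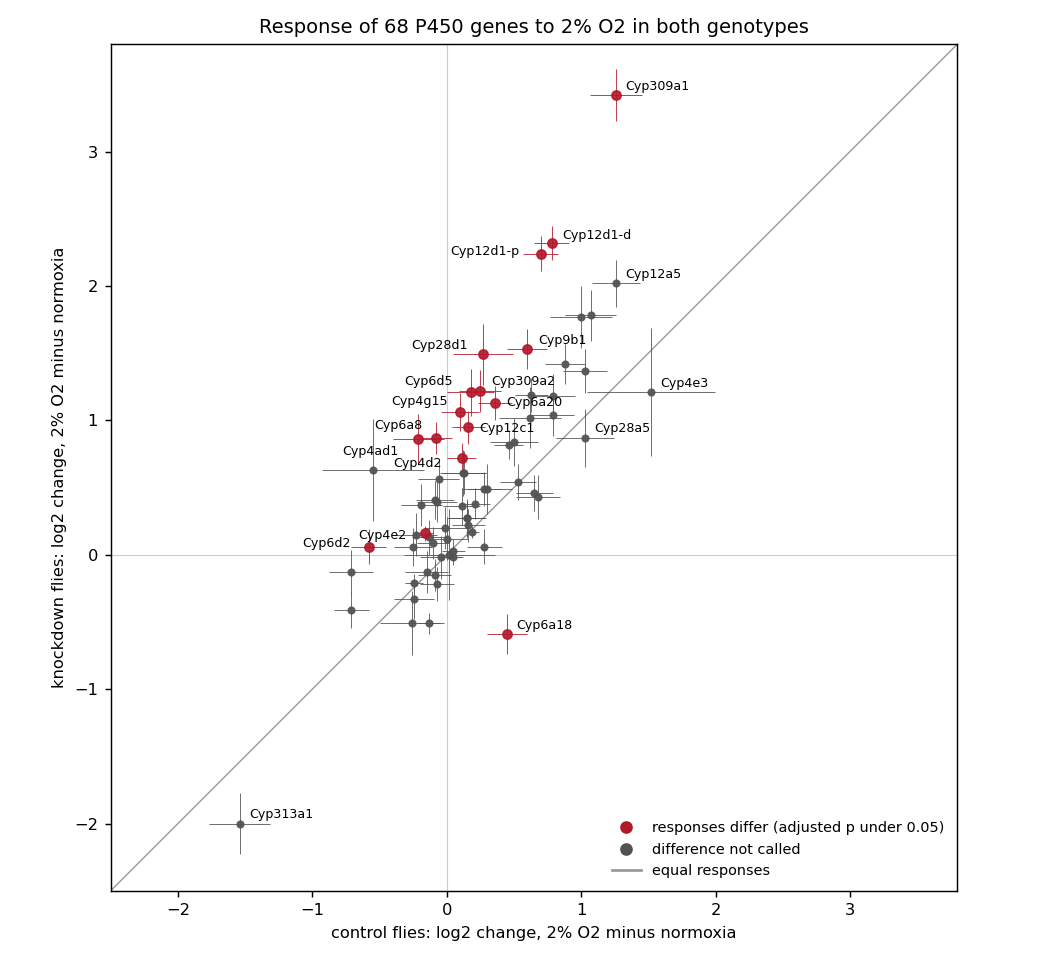
Log2 change from normoxia to 2% O2 in control flies (x axis) and knockdown flies (y axis) for 68 P450 genes, with standard errors. Red points are the 16 genes whose responses differed at an adjusted p under 0.05; 15 lie above the line of equal responses and Cyp6a18 lies below it.

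In normoxia knockdown flies had lower levels of 21 P450 genes and a higher level of 1, Cyp6d4, beside 10.1% of all genes lower and 5.90% higher (16.0% either way). The 21 are 30.9% of the members, and the median member differed by -0.29 against -0.01 for all genes. Cyp28d1 differed most, at -1.70 ± 0.226 (adjusted p = 0.000546) and 0.281 of the control mean. Cyp6a9, which overlaps the more abundant Cyp6a19 on the other strand (FBgn0013771, 2R from 14879356 to 14881372), read 19.1, 17.8 and 18.1 in control flies and 8.30, 7.44 and 8.33 in knockdown flies, with no overlap and a difference of -1.10 ± 0.124 (adjusted p = 9.31e-05). Cyp6d4 read 4.39, 5.50 and 6.70 against 9.97, 10.8 and 10.1, also apart, at 0.80 ± 0.132 (adjusted p = 0.00154).

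Further lower members were Cyp309a1 at -0.81 ± 0.193, Cyp4p1 at -0.77 ± 0.229, Cyp6g1 at -0.67 ± 0.176, Cyp6a20 at -0.66 ± 0.128, Cyp4g15 at -0.65 ± 0.141 and Cyp12c1 at -0.59 ± 0.123. In each fit that left out 1 library 8 calls held, those of Cyp28d1, Cyp6a9, Cyp6a8, Cyp6a20, Cyp4g15, Cyp12c1, Cyp4d2 and Cyp6d4. The count of 22 fell to 8 without control normoxia replicate 3, to 14 without its replicate 1, to 11 without knockdown normoxia replicate 1 and to 10 without its replicate 2. Groups did not overlap in 40 members (58.8%, beside 40.6% of all genes). With quantile normalisation the calls over all genes were 714 lower and 826 higher, while those of the members were 14 lower and 2 higher.

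Tissue markers also differed between the genotypes in normoxia, and their part in the lower P450 levels was not tested. Of all genes 10.1% were lower and 5.90% higher in knockdown flies. Midgut markers were lower for 6 of 10 genes, with sums of 2657 to 3256 scaled FPKM in control and 1489.6 to 2129 in knockdown libraries. Muscle markers were lower for 3 of 7, at 3583 to 4941 against 1974 to 2269.7, and eye markers for 3 of 5, at 1706 to 2315 against 1578 to 1782. Ovary and germline markers were higher for 3 of 7, at 1095 to 1397 against 1431 to 1645. Tubule markers were lower for 1 of 6 (median -0.01), at 110.2 to 122 against 112 to 129.5. None of 6 fat body markers was called (median 0.21), at 1550.0 to 3014 against 2272 to 3185. Oenocyte markers were lower for 1 of 4 (median -0.41), at 137 to 181 against 109 to 132. No member of these lists was at 0 throughout.

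At 6% O2 knockdown flies had 22 lower members and 1 higher, Cyp6a19 at 0.28 ± 0.0836, beside 12.6% of all genes lower and 12% higher (24.7% either way). Groups did not overlap in 35 members (51.5%, beside 46.3% of all genes). The median member again differed by -0.29. Eye markers were lower here for 4 of 5 genes (median -0.59), midgut markers for 4 of 10 (median -0.57) and tubule markers for 2 of 6 (median -0.31), and their part in the lower P450 levels was not tested. Sums over libraries were 1969 to 2429 scaled FPKM in control and 1494 to 1726 in knockdown flies for eye, 2244 to 4155 and 1838 to 2005 for midgut, and 138 to 166 and 107 to 128 for tubule. Fat body markers were lower for 1 of 6 (median -0.38), oenocyte markers for 1 of 4 (median -0.36) and muscle markers for 1 of 7 (median -0.19). Of 7 ovary and germline markers 1 was higher (median 0.05). Cyp28d1 and Cyp6a9 led, at -1.21 ± 0.226 and -1.20 ± 0.124, followed by Cyp4ac1 at -0.94 ± 0.238, Cyp6g1 at -0.93 ± 0.176, Cyp4p1 at -0.77 ± 0.229, Cyp309a1 at -0.66 ± 0.193, Cyp6a13 at -0.60 ± 0.132 and Cyp18a1 at -0.56 ± 0.125. Of the 21 genes lower in normoxia, 15 were lower here, 71.4% of the former and 68.2% of the latter list. Such an overlap was not counted over all genes. Calls in each fit without 1 library numbered 5, those of Cyp28d1, Cyp6a9, Cyp6g1, Cyp6a13 and Cyp18a1. The count of 23 fell to 6 without control 6% O2 replicate 1 or knockdown 6% O2 replicate 2, and to 10 without knockdown 6% O2 replicate 3.

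At 2% O2 the genotypes differed in both directions, with 14 members higher and 7 lower in knockdown flies, beside 11.7% and 8.50% of all genes (20.2% either way). Groups did not overlap in 35 members (51.5%, beside 35.1% of all genes). The 14 are 20.6% of the members, and the 7 are 10.3%, close to the share over all genes. The median member differed by 0.08. At this level eye markers were lower for 3 of 5, muscle markers for 2 of 7 and midgut markers for 1 of 10, and fat body markers were higher for 2 of 6, also with no test of their part. Of 6 tubule markers 1 was higher (median -0.03), as was 1 of 7 ovary and germline markers (median 0.30). Oenocyte markers were lower for 3 of 4 (median -1.19). Higher were Cyp309a1 at 1.35 ± 0.193 (adjusted p = 0.000208), Cyp12d1-p at 1.21 ± 0.129, Cyp12d1-d at 1.19 ± 0.127, Cyp4ad1 at 0.97 ± 0.187, Cyp6d4 at 0.81 ± 0.132, Cyp6d5 at 0.74 ± 0.175, Cyp6g2 at 0.58 ± 0.154 and Cyp4ac2 at 0.55 ± 0.163. Lower were Cyp6a18 at -1.29 ± 0.147 (adjusted p = 3.51e-05), Cyp6a9 at -1.04 ± 0.124, Cyp4ac1 at -0.80 ± 0.238, Cyp305a1 at -0.61 ± 0.126, Cyp4g1 at -0.61 ± 0.149, Cyp4ae1 at -0.50 ± 0.131 and Cyp12e1 at -0.42 ± 0.12. The calls of Cyp6g2, Cyp4ac2, Cyp4ac1, Cyp4ae1 and Cyp12e1 were each lost in at least 1 fit without 1 library. The count of 21 was 13 without control 2% O2 replicate 3 or knockdown 2% O2 replicate 1, and 32 with quantile normalisation. Over all genes 1157 were higher and 843 lower, against 876 and 1132 on the deposited FPKM.

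Cyp6a9, Cyp305a1 and Cyp4g1 were lower in knockdown flies at all 3 oxygen levels. Cyp4g1 differed by -0.52 ± 0.149 in normoxia (adjusted p = 0.0310), -0.46 ± 0.149 at 6% O2 (adjusted p = 0.0379) and -0.61 ± 0.149 at 2% O2 (adjusted p = 0.0105), with no overlap of libraries at any level. Its normoxia call was lost without replicate 1 or 3 of the controls or replicate 1 or 2 of the knockdown flies, the 6% O2 call was lost in every fit that left out 1 library, and the 2% O2 call held in each but not in a fit of those 2 groups alone. Cyp305a1 differed by -0.47 ± 0.126, -0.47 ± 0.126 and -0.61 ± 0.126. Its normoxia call was lost in 5 of the 6 fits that left out 1 library, and the 2% O2 call held in all 6. Cyp309a1 and Cyp309a2 were lower in normoxia and higher at 2% O2, which is 2 of 21 and 2 of 14 genes. Both calls of Cyp309a2 held in 1 of 6 fits that left out 1 library.

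Other genes of cuticular hydrocarbon synthesis were measured beside Cyp4g1. Of 8 such genes, Cpr among them, 4 fell at 2% O2 in control flies and 5 in knockdown flies, and 5 were lower in knockdown than in control flies at 2% O2. The shares of all genes were 14.7%, 27.0% and 8.50%. eloF, an elongase of female hydrocarbons, fell by 1.55 ± 0.175 and 1.79 ± 0.175, and the oenocyte fatty acid synthase FASN3 fell by 1.05 ± 0.211 and 2.62 ± 0.211. FASN1, FASN2 and FarO measured 0.39 ± 0.205, 0.14 ± 0.127 and 0.46 ± 0.180 in control flies, none of them called. In knockdown flies FASN1 and FASN2 were not called, and FarO was called lower at -0.66 ± 0.180. The summed level of 4 oenocyte markers was 137 to 181 scaled FPKM in control normoxia, 81.4 to 83.4 in control 2% O2, 109 to 132 in knockdown normoxia and 41.1 to 67.2 in knockdown 2% O2, with none at 0 throughout. All 4 markers, eloF, FASN3, FASN2 and FarO, belong to the 8 genes above, so the sum is no separate measure. Of the 4, 2 fell in control flies and 3 in knockdown flies at 2% O2. At that level 3 were lower in knockdown than in control flies, and their part in the Cyp4g1 difference was not tested.

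**Figure D4:**
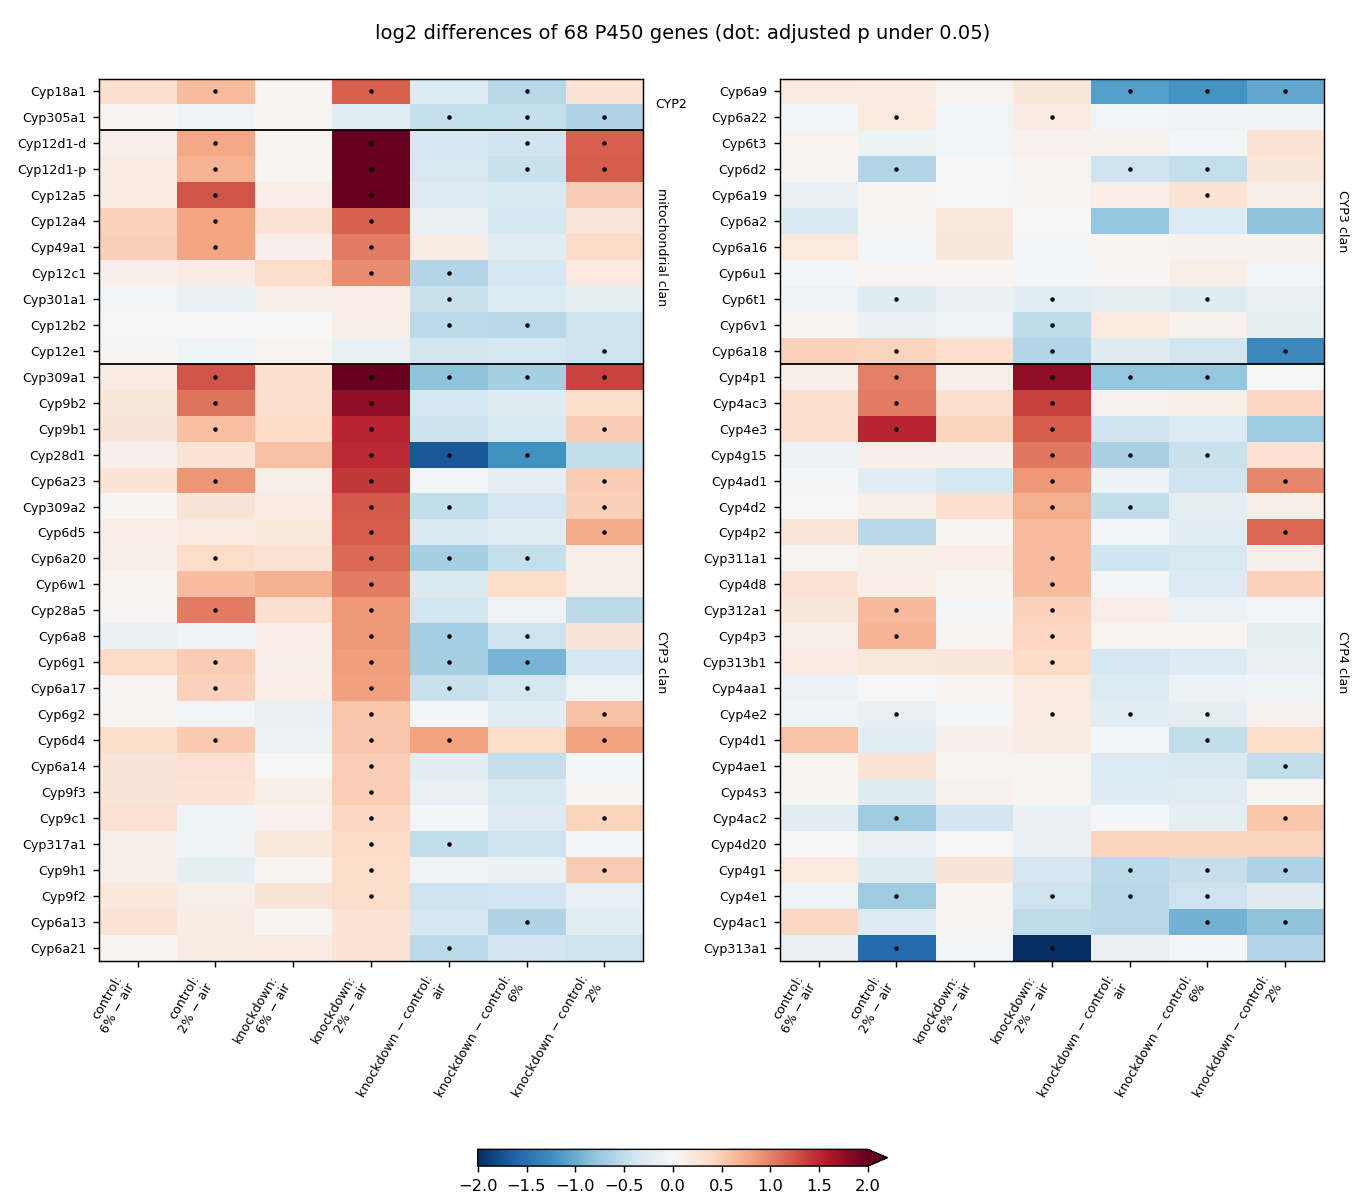
Log2 differences of the 68 P450 genes, ordered by clan, for 7 comparisons, with a color scale clipped at 2.0 in each direction and a dot where the adjusted p was under 0.05. The columns of 6% O2 against normoxia hold no dots, and the knockdown 2% O2 column holds 46, of which 41 are rises.

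At 6% O2 against normoxia no P450 gene passed the threshold in either genotype. limma called 0 of 9921 genes in control flies (1329 at an unadjusted p under 0.05), which is 0% of the genes tested. In knockdown flies it called 62, which is 0.625% (0.585% higher, 0.0403% lower, and 746 genes at an unadjusted p under 0.05). Groups did not overlap in 7 members (10.3%, beside 15.9% of all genes) of control flies and in 11 (16.2%, beside 17.3%) of knockdown flies. Of the members, 7 had an unadjusted p under 0.05 and a higher level in control flies and none a lower one, and in knockdown flies 7 were higher and 1 lower. The largest of these were Cyp4d1 in control flies at 0.57 ± 0.160 (adjusted p = 0.166) and Cyp6w1 in knockdown flies at 0.71 ± 0.229 (adjusted p = 0.331). In each genotype 53 of 68 members lay above 0, with medians of 0.10 and 0.09, where 48.2% and 52.0% of all genes did. The 6% O2 mean lay between the normoxia and 2% O2 means for 20 of the 22 raised and 5 of the 6 lowered members of control flies, and for 34 of 41 and 3 of 5 in knockdown flies. These genes were chosen by their distance between normoxia and 2% O2, so a 6% O2 mean with little change tends to fall between. Such counts are no test of a graded response, and the same was not counted over all genes. The genotypes' responses to 6% O2 differed for 0 members and 0% of all genes, with 1017 genes and 1 member at an unadjusted p under 0.05.

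Neighbouring P450 genes could have unlike responses. In all, 35 members fell into 12 tandem groups with at most 10 kb between neighbours, the largest of 9 genes on 2R from 14871366 to 14903095. In that group Cyp6a23, Cyp6a17, Cyp6a22 and Cyp6a20 were raised at 2% O2 in both genotypes. Cyp6a19 and Cyp6a9, whose ends overlap, were called in neither, at 0.05 and 0.16 in control flies, and Cyp6a21, also called in neither, lay at 0.15. Cyp6a8 and Cyp317a1 rose in knockdown flies by 0.87 and 0.39 and measured -0.08 and -0.07 in control flies. The Cyp4ac group on 2L lies within the locus of tkv, on the other strand, and held 3 genes with control responses of -0.26 ± 0.238, -0.71 ± 0.163 and 1.03 ± 0.164 for Cyp4ac1, Cyp4ac2 and Cyp4ac3. The Cyp4p group on 2R overlaps hig on the other strand. There Cyp4p1 and Cyp4p3 rose by 1.00 ± 0.229 and 0.68 ± 0.164 in control flies. Cyp4p2 read 14.8, 12.5 and 13.1 in normoxia and 3.68, 20.4 and 8.63 at 2% O2, a spread too wide for a call (adjusted p = 0.311). By contrast both members of the Cyp9b, Cyp12a and Cyp12d1 pairs rose in both genotypes.

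**Figure D5:**
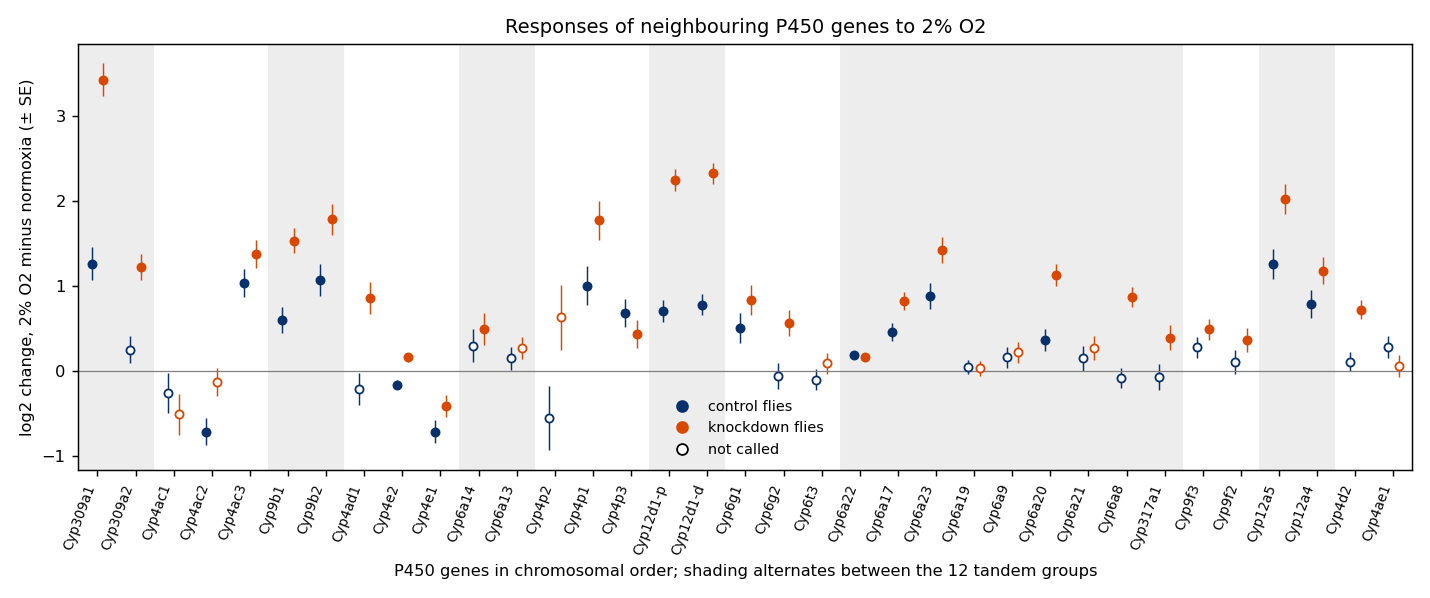
Log2 change from normoxia to 2% O2 (± SE) for the 35 P450 genes in 12 tandem groups, in chromosomal order, for control flies (blue) and knockdown flies (orange), with open points where no call was made. Cyp4ac2 lies at -0.71 and its neighbour Cyp4ac3 at 1.03 in control flies, while both Cyp12d1 copies lie together.

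Smaller rises in knockdown flies at 2% O2 were those of Cyp4d8 at 0.61 ± 0.160, Cyp9f3 at 0.49 ± 0.124, Cyp6a14 at 0.49 ± 0.188 and Cyp313b1 at 0.38 ± 0.114. The latter pair lost the call in at least 1 fit without 1 library. Cyp312a1 rose in both genotypes, by 0.65 ± 0.137 and 0.46 ± 0.137. Cyp6u1, Cyp6a2, Cyp6a16, Cyp6t3, Cyp4aa1, Cyp4d20 and Cyp4s3 were called in none of the 9 comparisons.

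By level, 14 of the 28 members with a mean of at least 10 scaled FPKM rose in control flies at 2% O2 and 2 fell, against 8 and 4 of the 40 members under 10. In knockdown flies 20 rose and 2 fell among the former and 21 and 3 among the latter. Of all genes 15.4% rose and 14.7% fell in control flies, and 28.5% and 27.0% in knockdown flies. The median responses were 0.32 and 0.01 in control flies and 0.85 and 0.38 in knockdown flies. Adding 1 to each value before taking logs lowers the measured change of low genes, and its part in these medians was not tested.

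Genes of the partners that supply P450 enzymes with electrons and heme were counted too. At 2% O2, 15.4% of all genes rose and 14.7% fell in control flies, and 28.5% and 27.0% in knockdown flies. Of 6 electron partners, Cyt-b5 rose by 0.34 ± 0.0663 in control and 0.54 ± 0.0663 in knockdown flies at 2% O2, and the P450 reductase gene Cpr measured 0.04 ± 0.0692 and -0.16 ± 0.0692, not called. In all, 2 of the 6 rose in each genotype and none fell. Of 7 genes of heme synthesis and breakdown, 1 rose and 2 fell in control flies, and 5 rose and 1 fell in knockdown flies. Alas, the first enzyme of heme synthesis, rose by 0.24 ± 0.0893 (adjusted p = 0.0497) and 0.69 ± 0.0893 (adjusted p = 1.02e-05), and its response differed between the genotypes by 0.44 ± 0.126 (adjusted p = 0.0436).

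Of 12 tested regulators of xenobiotic and oxygen responses, 4 rose and none fell in control flies at 2% O2, and 5 rose and 2 fell in knockdown flies. The shares of all genes were 15.4% raised and 14.7% lowered in control flies, and 28.5% and 27.0% in knockdown flies. Hph, the prolyl hydroxylase that marks the hypoxia factor sima for degradation, rose by 0.61 ± 0.0576 and 0.94 ± 0.0576, a difference between the genotypes of 0.33 ± 0.0815 (adjusted p = 0.0233), and the nuclear receptor gene Hr38 by 1.13 ± 0.122 and 1.49 ± 0.122. cnc, the Nrf2 homolog that drives detoxification genes, rose by 0.13 ± 0.0365 and 0.18 ± 0.0365. Its partner maf-S was called in knockdown flies at 0.25 ± 0.0562, and Hr96, a xenobiotic-sensing receptor, fell there by 0.30 ± 0.0665.

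Genes of the conjugating enzymes that act after P450 on many substrates were counted for comparison. Beside these counts, 15.4% of all genes rose and 14.7% fell in control flies at 2% O2, and 28.5% and 27.0% in knockdown flies. Of 32 tested glutathione transferase genes, 12 rose and 7 fell in control flies at 2% O2, and 19 rose and 3 fell in knockdown flies. At 2% O2, 14 were higher in knockdown than in control flies and none was lower, and 10 had the higher response in knockdown flies. Over all genes 11.7% were higher, 8.50% were lower and 5.43% had the higher response in knockdown flies. GstD5 rose by 2.28 ± 0.132 and 4.11 ± 0.132. Of 9 tested UDP-glycosyltransferases, 2 rose and 1 fell in control flies and 4 rose and 1 fell in knockdown flies, led by Ugt86Dd at 1.35 ± 0.195 and 2.16 ± 0.195.

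The P450 genes of ecdysone synthesis carry names without Cyp and so fell outside the rule. Of the 8 genes of that list, 4 reached 1 FPKM, and spo, phm, sad and the dehydrogenase gene sro all fell at 2% O2 in both genotypes. phm fell by 1.05 ± 0.133 in control flies and by 1.10 ± 0.133 in knockdown flies, and spo by 0.89 ± 0.118 and 0.94 ± 0.118. The 8 genes summed to 12.3 to 14.0 scaled FPKM in control normoxia and 3.28 to 4.44 at 2% O2. The 4 tested genes of juvenile hormone metabolism were Jheh1, Jheh2, Jheh3 and Jhedup, none of them a gene of synthesis. In control flies 3 fell, Jheh2 at -0.17 ± 0.0358, Jheh3 at -0.92 ± 0.140 and Jhedup at -0.68 ± 0.203. In knockdown flies 1 fell, Jheh3 at -0.89 ± 0.140. At 2% O2, 14.7% of all genes fell in control flies and 27.0% in knockdown flies.

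The 3 members just inside the threshold of 1 FPKM were Cyp6a16 at 1.14, Cyp301a1 at 1.25 and Cyp312a1 at 1.29, and Cyp308a1 at 0.916, Cyp313a4 at 0.836 and Cyp4d21 at 0.824 lay just outside. Cyp313a5 was listed at 0 in all 18 libraries.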

How the data were processed

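Poly-A RNA of whole adult females was sequenced on a BGISEQ-500, 18 libraries in 6 groups of 3. The authors deposited 1 table of FPKM values per library. The submitters' processing notes name TopHat2, HTSeq and Cufflinks and build BDGP6, with no versions given in the sources used here. The tables list 17658 genes and no read counts, so depth is known only in relative terms, and the sums of FPKM were 876999 to 1000923. All 38 mitochondrial genes were listed at 0. No 2 libraries held the same value above 0 for more than 2 genes. Annotation came from a BDGP6 gene table, in which 17303 of the 17521 matched genes had the deposited coordinates after 1 was added to the start.

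Here each library's FPKM was divided by its median ratio over the 9068 genes above 1 FPKM in every library (factors 0.947 to 1.04). The 9921 genes averaging 1 FPKM or more were tested on log2(scaled FPKM + 1), a scale that understates the change of low genes, with limma 3.58.1 in R 4.3.3 (6 group means, trended and robust variances, 12 residual degrees of freedom). Benjamini-Hochberg adjustment was made separately in 9 comparisons, and 0.05 was the threshold. The procedure was run on simulated data with independent noise, in which few genes were changed, equally up and down, in control 2% O2. That run does not check scaling or calls under the broad changes of these data. Tables and plots used Python 3.11.15, pandas 2.3.3, scipy 1.17.1 and matplotlib 3.10.9. Coordinates are 1-based. Nothing in the labels says that replicates came from separate cultures, so p-values measure the spread between these samples. Replicate numbers did not pair the samples and were not used. Alternatives were another pseudocount (0.1 or 5), filter or scaling, array weights, a replicate block, fitting the compared groups alone, the sum of both Cyp12d1 copies and leaving out each library in turn.

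The genes and gene lists were chosen with earlier results of these data known. Named genes are the 8 with the largest change in each direction among those called, with no overlap between groups and a level of at least 2 scaled FPKM in 1 group, the 12 most abundant, those with a textbook role, and the 3 on each side of the threshold. From other lists the up to 3 called genes with the smallest adjusted p could be named. Further members and list genes named here were chosen after their values were seen.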

Additional observations from a re-analysis of the deposited data

Results flagged for a closer look

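Responses to 2% O2 that differed between the genotypes were singled out for 16 P450 genes by the test of the difference itself, given as the knockdown minus the control log2 response (limma, adjusted p under 0.05, percent of all genes called either way 7.64%). Highest on the log2(scaled FPKM + 1) scale, which understates the change of low genes, were Cyp309a1 at 2.16, Cyp12d1-d at 1.54 and Cyp12d1-p at 1.54. The last pair are near-identical copies. Cyp28d1 followed at 1.21, Cyp4ad1 at 1.08 and Cyp6d5 at 1.03. Between 0.9 and 1.0 lay Cyp309a2 at 0.96, Cyp4g15 at 0.95, Cyp6a8 at 0.95 and Cyp9b1 at 0.93. Lower values belonged to Cyp12c1 at 0.78, Cyp6a20 at 0.77, Cyp6d2 at 0.64, Cyp4d2 at 0.61 and Cyp4e2 at 0.32. Cyp6a18 was the 1 gene with the higher response in control flies, at -1.05. For Cyp6d2 the control response was a fall of 0.58 and the knockdown response 0.06, and for Cyp4e2 the responses were -0.16 and 0.16. Cyp28d1 and Cyp6d2 held the call in 3 and 2 of the 12 fits that left out 1 library.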

How the results depend on the processing

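Counts of P450 genes called, other than those given here, stayed within 1.5 times the reported count under each alternative run. With a mean of at least 5 FPKM, which leaves 39 of the 68 members, the count was 28 for knockdown flies at 2% O2, 13 for the genotypes in normoxia, 12 for the genotypes at 2% O2 and 9 for the difference in response to 2% O2. Array weights gave 5 for knockdown flies at 6% O2, 38 in normoxia, 34 at 2% O2 and 25 for the difference in response. The genotypes at 6% O2 differed in 11 genes when only those groups were fitted, and at 2% O2 in 32 under quantile normalisation. Leaving out 1 library gave 23 to 27 genes for control flies at 2% O2, 38 to 44 for knockdown flies, 8 to 25 for the genotypes in normoxia, 6 to 31 at 6% O2, 13 to 22 at 2% O2 and 9 to 21 for the difference in response, and 0 throughout for 6% O2 against normoxia and for the difference in response to 6% O2. The causes of these moves were not tested, apart from the smaller number of members or libraries. Same-numbered replicates did not pair: in 0 of 15 pairs of groups did every number correlate above 0.1 (range -0.325 to 0.25), and in 25 of 90 comparisons of a library with the 3 of another group the best correlation was with its own number. With a replicate block the counts were 27, 46, 0, 0, 25, 24, 23, 17 and 0, in the order control and knockdown at 2% O2, both at 6% O2, the genotypes in normoxia, 6% and 2% O2, and the differences in response to 2% and 6% O2. Single-gene results were followed for only a part of the members and comparisons, 303 results in the run with a pseudocount of 0.1. For that part, the fits that left out a library together kept 2031 results on their side of the threshold. They took 152 out and brought 19 in, which does not measure the losses over all 68 members. None of the results followed was listed as reversed under any alternative. The depth of the libraries is unknown in absolute terms, so no counting error can be given for low genes.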

Other observations

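Cyp1, the cyclophilin whose symbol matched by spelling, averaged 1559 scaled FPKM in control normoxia and 1757 in knockdown normoxia. It fell by 0.14 ± 0.0428 at 2% O2 in control flies (limma, adjusted p = 0.0216) and by 0.21 ± 0.0428 in knockdown flies (adjusted p = 0.000558), and was higher in knockdown flies by 0.17 ± 0.0428 in normoxia (adjusted p = 0.0152).

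Some P450 genes under the threshold of 1 FPKM were called when no filter was set. Cyp4d21, known as sxe1 for a role in male courtship, averaged 1.29 scaled FPKM in control normoxia and 0.582 at 2% O2, and 0.922 and 0.378 in knockdown flies, and was called lower in both. Cyp313a4 was called likewise, from 1.23 to 0.548 and from 0.957 to 0.385. Cyp304a1 went from 0.439 to 0.175 in control flies and from 0.514 to 1.19 in knockdown flies, and both the knockdown response and the difference in response were called.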
